A study of Mus musculus with 4 samples.

Results

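Keratins that distinguish the luminal and the basal cells of the mammary gland were examined with arrays in mammary epithelial cells from MMTV-Cre mice and of their wild-type littermates. The set was named by symbol: Krt7, Krt8, Krt14, Krt15, Krt17, Krt18, Krt19, Krt23, Krt5 and Krt6a. A gene was represented by the probe set that the platform annotation maps to its symbol alone, and by the one with the highest mean where it had several. Of the 10 keratins 9 were found in this way, among 22180 genes. Krt5 was not, because its probe set also carries the name Krt6a. There were 2 samples from MMTV-Cre mice, which carry the Cre recombinase driven by the promoter repeat (MMTV LTR) of mouse mammary tumour virus, which is active mainly in mammary and some other epithelia, and 2 from wild-type mice, each on 1 array. Mice of both genotypes were 4 weeks old on a congenic FVB/NJ background, and the labels name no other allele. The cells came from inguinal glands by collagenase digestion and centrifugation against stroma. Samples within a genotype are labelled as biological replicates. How many mice made up a sample, and which founder line carried the transgene, is not given in those labels. The transgene itself was not analysed here, so the genotype rests on the labels.

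Keratins form intermediate filaments as pairs of a type I and a type II protein, so that neither kind makes a filament alone. In the mammary duct the inner luminal cells are known for the type II keratins Krt8 and Krt7 with the type I keratins Krt18 and Krt19, and the outer basal, or myoepithelial, cells for the type II keratin Krt5 with the type I keratins Krt14 and Krt17. In the mouse the genes of type I lie together on chromosome 11 and those of type II on chromosome 15, where Krt18, a type I gene, lies beside Krt8. In RefSeq assembly GRCm38.p6 Krt8 occupies chr15:101996711-102004342 and Krt18 chr15:102028216-102032026, and Krt14 and Krt17 occupy chr11:100203162-100207510 and chr11:100256215-100261029.

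The promoters of 3 luminal keratins are shown. Krt8 and Krt18 encode the partners of one filament and were the only 2 members whose groups did not overlap, in opposite directions. Groups were apart in 33.1% of all tested genes, so these 2 are no more than the background. The groups of Krt7, the other type II luminal keratin, overlapped. Each sequence, from RefSeq on GRCm38.p6, runs 5′ to 3′ along the gene's strand from 250 bases before to 50 bases after the annotated start. Capitals mark matches, on either strand, to the TATA box core TATAAA, to the GC box GGGCGG bound by the Sp1 family, and to GCCNNNGGC, bound by the AP-2 family. The regions are chr15:102004293-102004592 on the minus strand for Krt8, chr15:102027966-102028265 on the plus strand for Krt18 and chr15:101412153-101412452 on the plus strand for Krt7.
Krt8: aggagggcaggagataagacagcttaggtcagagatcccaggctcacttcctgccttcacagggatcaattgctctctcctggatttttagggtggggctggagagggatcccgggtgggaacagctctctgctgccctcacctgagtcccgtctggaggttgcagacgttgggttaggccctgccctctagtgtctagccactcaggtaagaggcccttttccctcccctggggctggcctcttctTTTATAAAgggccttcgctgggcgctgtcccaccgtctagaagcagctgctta
Krt18: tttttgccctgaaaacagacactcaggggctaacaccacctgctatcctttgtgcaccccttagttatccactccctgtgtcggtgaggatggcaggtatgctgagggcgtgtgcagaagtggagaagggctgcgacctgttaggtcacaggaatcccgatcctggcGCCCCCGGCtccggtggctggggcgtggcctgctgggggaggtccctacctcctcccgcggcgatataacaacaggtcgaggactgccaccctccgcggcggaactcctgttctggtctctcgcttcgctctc
Krt7: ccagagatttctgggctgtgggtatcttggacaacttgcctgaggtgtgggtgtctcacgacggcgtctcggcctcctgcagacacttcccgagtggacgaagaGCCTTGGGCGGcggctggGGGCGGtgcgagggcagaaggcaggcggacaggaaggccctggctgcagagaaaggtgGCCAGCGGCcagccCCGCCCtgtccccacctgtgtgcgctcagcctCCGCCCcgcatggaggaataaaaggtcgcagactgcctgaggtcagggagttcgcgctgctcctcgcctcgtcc
The Krt8 window held 2 matches to TATAAA, which overlap each other on opposite strands at the annotated start, and 0 to the other motifs. In the Krt18 window 1 match to GCCNNNGGC was found and 0 to TATAAA or GGGCGG. The Krt7 window held 4 matches to GGGCGG and 2 to GCCNNNGGC, 1 of which overlaps a GC box. Of 32851 promoter windows of the same length, 13.6% held TATAAA, 35.7% GGGCGG and 16.6% GCCNNNGGC. These are matches of letters, and binding was not measured.

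Signals are RMA values on a log2 scale, so a difference of 1 is a doubling. The median of the probe set means was 2.84, and genes with a lower mean were left out of the test, which left 11668 genes. Signals of different probe sets depend on their probes and are not ranked against each other. Replicate arrays correlated across the tested genes, which are not independent replicates, at 0.983 for MMTV-Cre and 0.980 for wild-type. Wild-type replicate 1 carried lymphocyte transcripts: the mean over 8 tested T and B lymphocyte markers, after subtracting each gene's own mean, stood at 1.96 there, against −0.65 in wild-type replicate 2 and −0.72 and −0.60 in MMTV-Cre. Some of the 8 entered the test through that array, so the size of this mean depends on the filter. Cd3d had 6.17 there, against 2.44 in wild-type replicate 2 and 2.18 and 2.68 in MMTV-Cre. Lat lay above 2.84 in every array, with 6.05 there, against 3.88 in wild-type replicate 2 and 3.64 and 3.54 in MMTV-Cre. Epcam, an adhesion molecule of epithelia, was well above the median signal in every array, with 8.67 and 8.52 in MMTV-Cre, against 8.61 and 8.64 in wild-type.

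The luminal keratins were at nearly the same signal in both groups, and none of the 4 passed the test. Krt8, the main type II keratin of simple epithelia, stood at 10.30 and 10.36 in MMTV-Cre, against 10.40 and 10.37 in wild-type. Both MMTV-Cre arrays lay below both wild-type arrays, by a small margin. The difference on the log2 scale, as MMTV-Cre minus wild-type throughout, came to −0.06 (95% interval −0.33 to 0.22, limma adjusted p = 0.995 over all tested genes). Krt18, its type I partner, stood at 10.18 in both MMTV-Cre arrays, against 10.01 and 9.99 in wild-type. The groups did not overlap and MMTV-Cre was higher, with a log2 difference of 0.18 (−0.09 to 0.45, limma adjusted p = 0.964), or 1.13-fold. A second Krt18 probe set gave 9.85 and 9.87 in MMTV-Cre, against 9.84 and 9.77 in wild-type. Its groups did not overlap either, but its difference was 0.06, so the size depends on which set stands for the gene.

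Krt19, a type I keratin that has no tail domain, was the steadiest of the tested members. It stood at 8.82 and 8.89 in MMTV-Cre, against 8.89 and 8.83 in wild-type. Its range over the 4 arrays was 0.07 log2 units, and 2.18% of the tested genes and 8.64% of the 1204 tested genes with a mean of at least 7 had a smaller one. The group difference was −0.01 (95% interval −0.28 to 0.27), and its sign turned when arrays were centred on their medians. Krt7, a type II keratin of glandular ducts, stood at 7.31 and 7.58 in MMTV-Cre, against 7.50 and 7.65 in wild-type. The groups overlapped, with MMTV-Cre replicate 1 lowest, and the difference was −0.13 (−0.49 to 0.24). Without that array the difference of Krt7 was 0.01.

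**Figure D1:**
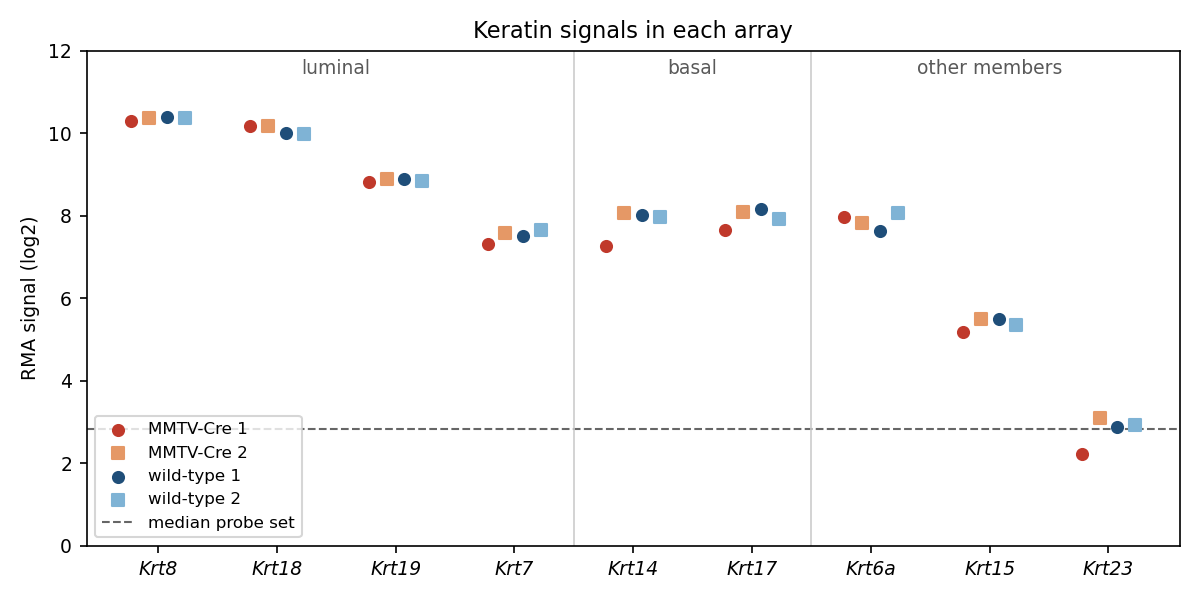
RMA signal (log2) of the 9 keratins in each of the 4 arrays, MMTV-Cre in red and orange and wild-type in blue, with the dashed line at 2.84, the median of the probe set means. Krt8, Krt18 and Krt19 cluster tightly, MMTV-Cre replicate 1 is low for Krt14 at 7.27 and for Krt17 at 7.65, and Krt23 lies at the dim end.

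Krt14 and Krt17 had wider ranges over the 4 arrays, 0.80 and 0.52, than the 4 luminal keratins, at 0.07 to 0.34, and both were lowest in MMTV-Cre replicate 1. Krt14, the type I keratin of basal and myoepithelial cells, stood at 7.27 and 8.07 in MMTV-Cre, against 8.02 and 7.97 in wild-type. MMTV-Cre replicate 1 lay 0.70 below the lowest of the other 3 arrays, while MMTV-Cre replicate 2 was the highest of all. The difference was −0.33 (95% interval −1.03 to 0.37, limma adjusted p = 0.976), and without MMTV-Cre replicate 1 it was 0.08. A gap of at least that size below the other arrays in MMTV-Cre replicate 1 was found in 22 of the tested genes (0.189%), Krt14 included.

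Krt17, a type I keratin of myoepithelial cells and skin appendages that is also induced by injury, stood at 7.65 and 8.08 in MMTV-Cre, against 8.17 and 7.93 in wild-type. MMTV-Cre replicate 1 was again the lowest, 0.28 below the next array, while wild-type replicate 1 was the highest, and 513 of the tested genes (4.4%) had a gap as large. The difference was −0.18 (95% interval −0.66 to 0.30) and 0.04 without MMTV-Cre replicate 1. For Krt5, the type II partner of Krt14, no value can be given by the rule. The probe set that carries the names Krt5 and Krt6a stood at 4.73 and 5.45 in MMTV-Cre, against 5.14 and 4.87 in wild-type. It too was lowest in MMTV-Cre replicate 1 and highest in MMTV-Cre replicate 2, and its signal cannot be assigned to either gene.

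The mean of Krt14 and Krt17, after subtracting each gene's own mean, stood at −0.44 and 0.18 in MMTV-Cre, against 0.20 and 0.05 in wild-type. The same mean over Krt7, Krt8, Krt18 and Krt19 stood at −0.05 and 0.05 in MMTV-Cre, against −0.01 and 0.01 in wild-type. Luminal minus basal was thus 0.39 and −0.13 in MMTV-Cre, against −0.21 and −0.04 in wild-type. The group difference of this balance was 0.25, close to the pooled within-group SD of 0.27 (n = 2 per group), and it was −0.0087 without MMTV-Cre replicate 1 and 0.51 without MMTV-Cre replicate 2.

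**Figure D2:**
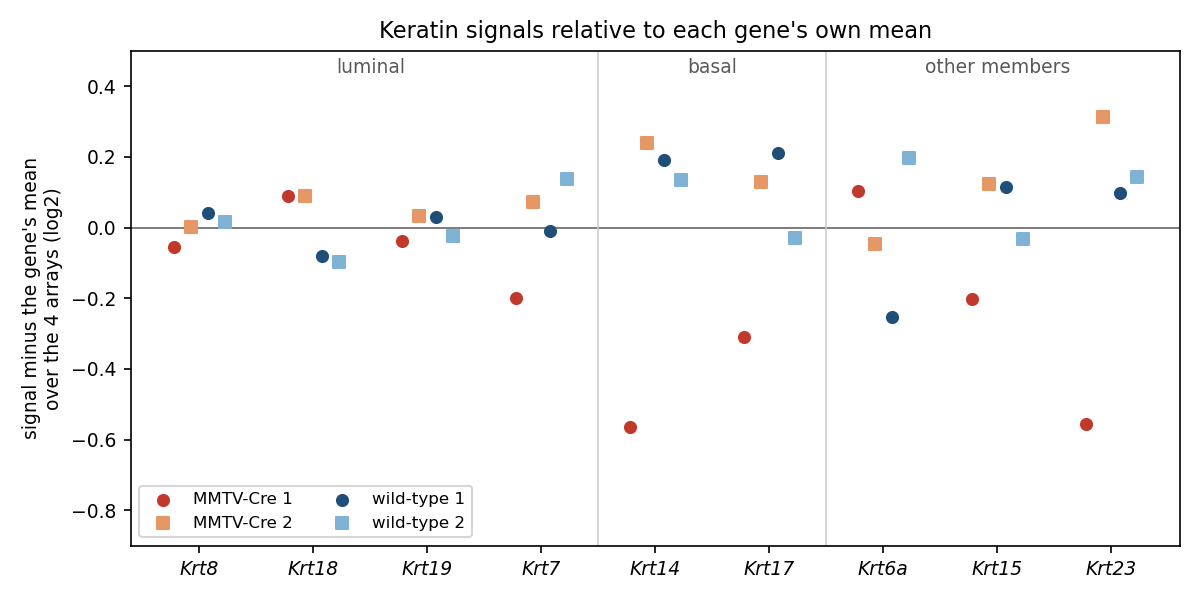
Signal minus the gene's mean over the 4 arrays (log2) for each keratin, MMTV-Cre in red and orange and wild-type in blue. MMTV-Cre replicate 1 lies lowest for 7 of the 9 keratins, down to −0.56 for Krt14, and not for Krt18 or Krt6a.

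The 3 remaining members differed from each other in pattern. Krt6a, a type II keratin that in mouse glands marks a subset of epithelial cells of growing ducts and in skin is induced by injury, stood at 7.98 and 7.83 in MMTV-Cre, against 7.62 and 8.07 in wild-type. The wild-type arrays enclosed both MMTV-Cre arrays, and the difference was 0.06 (95% interval −0.41 to 0.53). Its lowest array was wild-type replicate 1, the one with the lymphocyte transcripts, and without it the difference was −0.17. The part of those cells in the Krt6a value was not tested. Krt15, a type I keratin of basal layers in skin, stood at 5.18 and 5.50 in MMTV-Cre, against 5.49 and 5.35 in wild-type. The groups overlapped, with a difference of −0.08 (−0.47 to 0.31), and 0.08 without MMTV-Cre replicate 1. Krt23, a type I keratin, lay just below the limit for dim genes with a mean of 2.79, and the tested member nearest to the limit was Krt15, with 5.38. It stood at 2.23 and 3.10 in MMTV-Cre, against 2.89 and 2.93 in wild-type, and was not tested.

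Across the set, 0 of the 8 tested keratins passed the limma threshold of 0.05 on the adjusted p, and 0 had an unadjusted p under 0.05. The background was 0 of 11668 genes (0%) on the adjusted p and 504 (4.32%) on the unadjusted p. Groups did not overlap in 2 of the 8, Krt18 higher and Krt8 lower in MMTV-Cre, where 33.1% of tested genes had groups apart, 16.7% higher and 16.5% lower. These 2 of 8 are no more than the background. The 8 intervals included 0. The interval of the median gene, not adjusted for the number of genes, reached 0.34 log2 units to either side. A change smaller than that was not detectable in a typical gene, and the adjusted test asks for a larger one. The transcription factor gene Grhl3, for example, differed by −0.60 and did not pass it. The median difference of the 8 keratins was −0.07, against −0.0039 over all tested genes. In 6 of the 8 the difference was below 0, as in 51.0% of tested genes, and in 6 of the 8 the sign turned when MMTV-Cre replicate 1 was left out.

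**Figure D3:**
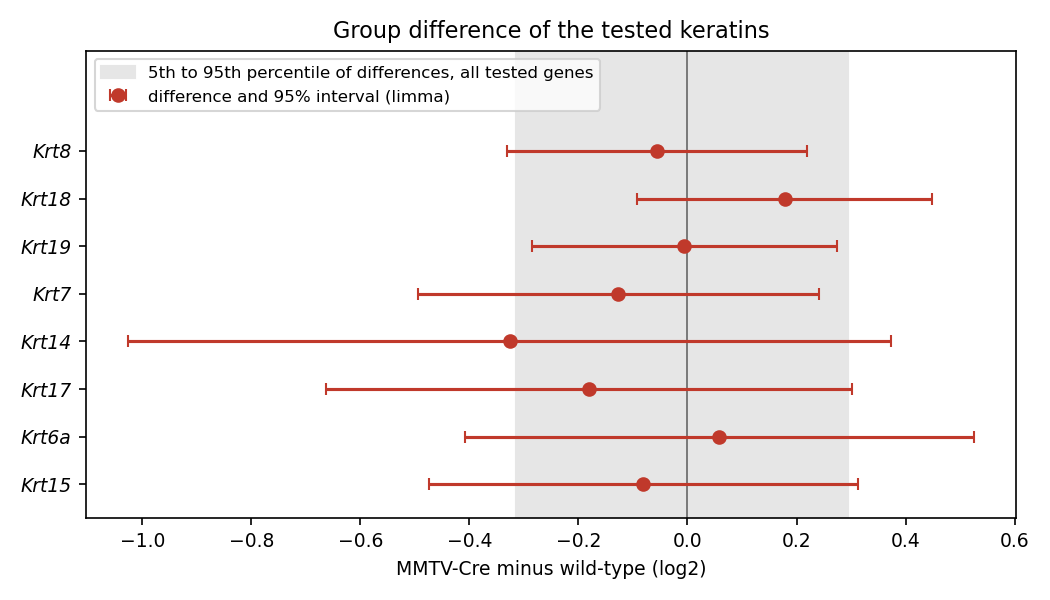
Difference MMTV-Cre minus wild-type (log2) of the 8 tested keratins, with 95% intervals from limma as bars, and the range from the 5th to the 95th percentile of differences over all tested genes in grey, from −0.32 to 0.29. The 8 intervals include 0, and that of Krt14, from −1.03 to 0.37, is the widest.

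MMTV-Cre replicate 1 was the lowest array for 7 of the 9 keratins, and for 6 of the 8 tested, where 30.2% of tested genes were lowest in it. Other basal genes did not share one pattern there. Of 11 tested basal and myoepithelial markers other than keratins, 5 were lowest and 5 highest in MMTV-Cre replicate 1. Of all tested genes 30.2% were lowest and 23.7% highest in that array. The names in the rest of this paragraph, apart from Acta2, Myh11 and Tagln, were chosen after their values were seen. Trp63, the p63 transcription factor of basal epithelia, stood at 3.11 and 3.61 in MMTV-Cre, against 3.54 and 3.66 in wild-type, and Nrg1, a ligand of ERBB receptors, at 6.33 and 6.81, against 6.82 and 6.72 in wild-type. Cdh3, Igfbp3 and Vcan were also lowest in that array. Acta2, the smooth muscle actin of myoepithelial cells, went the other way, with 8.46 and 8.26 in MMTV-Cre, against 8.04 and 7.87 in wild-type. The contractile genes Myh11, Tagln, Mylk and Cnn1 were likewise highest in MMTV-Cre replicate 1. In MMTV-Cre replicate 2 they differed: Myh11 and Tagln were lowest there, while Cnn1, like Acta2, lay above both wild-type arrays. Groups were apart with MMTV-Cre higher in 3 of the 11 markers, against 16.7% of all tested genes.

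In that list of 14 basal markers, 0 of the 11 tested passed the adjusted threshold. Acta2 and Cnn1 were the 2 with an unadjusted limma p under 0.05, against 4.32% of all tested genes. The median difference of the list was 0.11. Its centred mean stood at −0.05 and 0.13 in MMTV-Cre, against −0.02 and −0.07 in wild-type. In MMTV-Cre replicate 1 that mean averages genes of both directions, from −0.43 for Igfbp3 to 0.31 for Myh11, so the mean does not describe the single markers. Luminal markers other than keratins stood at 0.04 and 0.02 in MMTV-Cre, against −0.04 and −0.02 in wild-type, with 0 of 17 passing and a median difference of 0.05. In bulk samples, fewer cells of a type and less RNA per cell cannot be told apart.

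**Figure D4:**
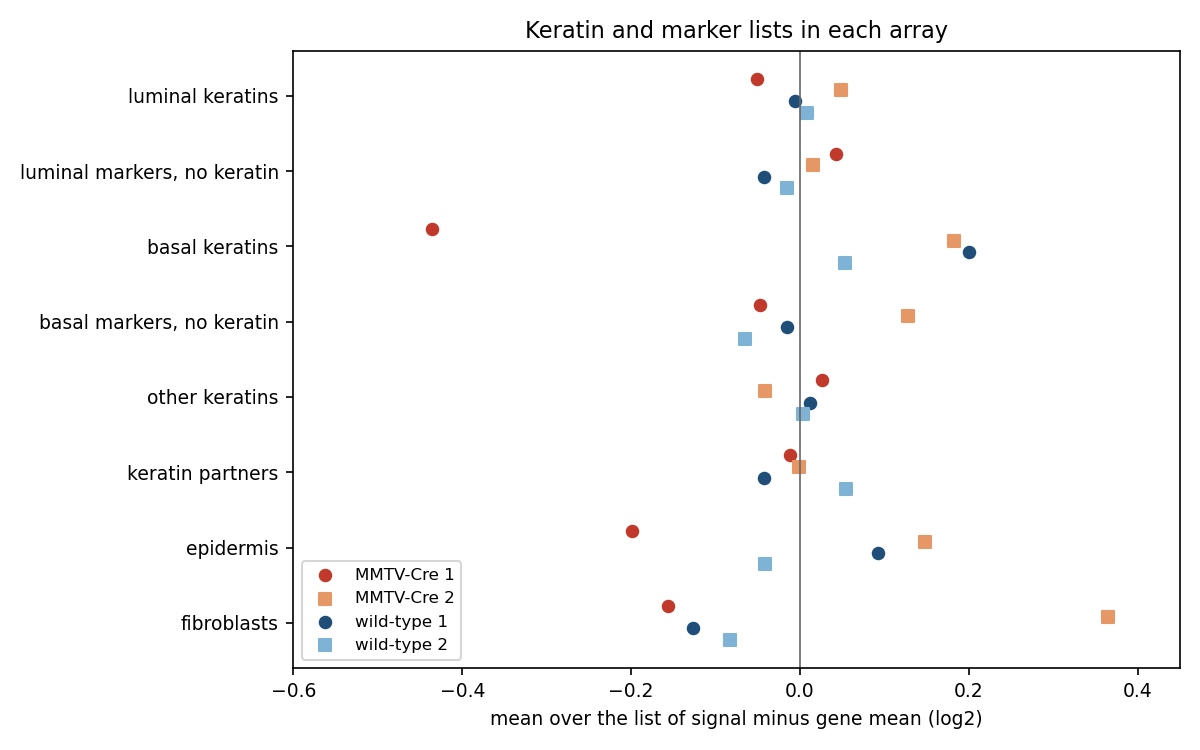
Mean over each list of the signal minus the gene's mean (log2), by array, MMTV-Cre in red and orange and wild-type in blue. The basal keratins Krt14 and Krt17 stand at −0.44 in MMTV-Cre replicate 1, and basal markers other than keratins at −0.05, a mean over 5 genes that were lowest, 5 that were highest and 1 that was neither in that array.

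Markers of other cell types moved between the same arrays. Fibroblast markers stood at −0.16 and 0.37 in MMTV-Cre, against −0.13 and −0.08 in wild-type, with 7 of 8 tested, and their brightest gene Col1a2 had 9.70 and 9.71 in MMTV-Cre, against 9.54 and 9.58 in wild-type. Macrophage markers, 6 of 7 tested, stood at −0.37 and 0.37 in MMTV-Cre, against 0.02 and −0.02 in wild-type. Both lists were thus lower in MMTV-Cre replicate 1 than in MMTV-Cre replicate 2, as Krt14 and Krt17 were. The same direction held for the adipocyte, endothelial, epidermal and lymphocyte lists and for basal markers other than keratins. Luminal markers other than keratins went the other way. These directions compare the 2 MMTV-Cre arrays only. Over the 4 arrays, 1 of the 7 tested fibroblast genes and 5 of the 6 tested macrophage genes were lowest in MMTV-Cre replicate 1, against 30.2% of all tested genes. The fibroblast mean of −0.16 there was close to the −0.13 of wild-type replicate 1. Adipocyte markers, 5 of 7 tested, stood at −0.14 and 0.07 in MMTV-Cre, against −0.06 and 0.12 in wild-type, and endothelial markers, 6 of 6 tested, at −0.16 and 0.14, against −0.22 and 0.24 in wild-type. Of 11 epidermal markers only 4 were bright enough to be tested, at −0.20 and 0.15 in MMTV-Cre, against 0.09 and −0.04 in wild-type. The brightest of the list were Sbsn, Krt10 and Cdsn, with means over the arrays of 5.35, 3.17 and 3.15. The cornified envelope genes Lor, Ivl and Flg, named outside the rule of highest mean, lay below the limit for dim genes. No marker of these lists or of the lymphocyte list, of which 8 of 10 were tested, passed the adjusted threshold, and the part of these cells in the keratin values was not tested.

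Beyond the 10 named keratins, 44 other keratin genes had a probe set of their own, and 33 of them had means below the limit, between 1.49 and 2.79. Of the 11 tested, 5 had a difference above 0 and 6 below, 0 passed the adjusted threshold, 0 had an unadjusted p under 0.05, and the median difference was −0.02. Krt16, a type I partner of Krt6 proteins in stressed epidermis, stood at 7.37 and 7.04 in MMTV-Cre, against 7.16 and 7.31 in wild-type. Krt80 stood at 6.19 and 5.89 in MMTV-Cre, against 6.13 and 6.11 in wild-type. Both were highest in MMTV-Cre replicate 1, unlike Krt14 and Krt17. The smallest unadjusted p-values belonged to dim genes. Krt1 and Krt10, the pair of differentiated epidermis, differed by −0.26 (95% interval −0.58 to 0.07) and −0.20 (−0.49 to 0.09), with group means of 2.84 and 3.07 in MMTV-Cre, against 3.10 and 3.27 in wild-type. Krt88 differed by −0.21. The hair keratin gene Krt81 differed by 0.21 and entered the test through MMTV-Cre, with a mean of 3.03, against 2.81 in wild-type, below the limit. Krt78 had 4.10 in MMTV-Cre and 3.96 in wild-type as group means.

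Keratin filaments attach to desmosomes and hemidesmosomes through plakins and their partners. Of 20 such genes 16 were tested, 5 with a difference above 0 and 11 below, and 0 passed on the adjusted or had an unadjusted p under 0.05, with a median difference of −0.02. The differences lay between −0.15 and 0.17. Cd151, a tetraspanin of hemidesmosomes, stood at 7.17 and 7.32 in MMTV-Cre, against 7.06 and 7.09 in wild-type, a difference of 0.17 (95% interval −0.13 to 0.46). Itgb4, the integrin that anchors basal keratins, differed by 0.11 (−0.18 to 0.39), and the plakin gene Ppl and the plakophilin gene Pkp3 by −0.15 and −0.12. For the centred mean of this list the values were −0.01 and −0.00079 in MMTV-Cre, against −0.04 and 0.05 in wild-type. Of the 16 tested genes, 4 were lowest and 2 highest in MMTV-Cre replicate 1, against 30.2% and 23.7% of all tested genes.

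Among 15 other intermediate filament genes, 7 were tested, 4 above 0 and 3 below, with a median difference of 0.06. On the adjusted p 0 passed, and 1, Nefh, had an unadjusted p under 0.05, against 4.32% of all tested genes. Vim, the vimentin gene of mesenchymal cells, stood at 8.59 and 8.88 in MMTV-Cre, against 8.34 and 8.65 in wild-type, a difference of 0.24 (95% interval −0.19 to 0.68). The nuclear lamin gene Lmnb1 averaged 5.75 in MMTV-Cre and 6.03 in wild-type, with the groups apart, and differed by −0.27 (−0.55 to 0.0021). Synm, which encodes synemin, differed by 0.26, and Nefh, a neurofilament gene at the dim end, by −0.44 (−0.81 to −0.07).

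Transcription factors of epithelial lineages had 17 of 18 genes tested, 14 above 0 and 3 below, where 49.0% of all tested genes were above 0, with a median difference of 0.07. On the adjusted p 0 passed, and 2 had an unadjusted p under 0.05, against 4.32% of all tested genes. Those 2 differed in direction. Ovol1, a zinc finger factor of epithelial differentiation, stood at 5.51 and 5.09 in MMTV-Cre, against 4.72 and 4.89 in wild-type, a difference of 0.49 (95% interval 0.05 to 0.94, limma adjusted p = 0.964). Grhl3, a grainyhead factor of epithelial barriers, stood at 2.65 and 2.57 in MMTV-Cre, against 3.33 and 3.09 in wild-type, a difference of −0.60 (−0.93 to −0.26, limma adjusted p = 0.964), with both MMTV-Cre values below the limit for dim genes, so that it entered the test through its wild-type values. Grhl2 differed by 0.26. Sox10 differed by 0.31 and entered the test through MMTV-Cre, with a mean of 3.03, against 2.72 in wild-type, below the limit.

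Likeness between genes was measured as the root mean square distance between centred signals over the 4 arrays, so small numbers mean similar profiles. Among the 9 keratins the closest pair was Krt8 and Krt19, at 0.03 log2 units, both nearly flat. Next came Krt14 and Krt23 at 0.06 and Krt15 and Krt17 at 0.07, which share the low value in MMTV-Cre replicate 1. Krt14 and Krt17 lay 0.16 apart and the filament partners Krt8 and Krt18 0.12. Farthest apart were Krt14 and Krt6a, at 0.43. Over all tested genes, those nearest to Krt23, the member with the largest range, were Tpgs1 and Tns3 at 0.02, S100a2 at 0.03 and Slc7a6 at 0.04. Nearest to Krt7, the luminal member with the largest range, were Ddx52, Hpgd, Cmtr2 and Fam189a1, at 0.0070 to 0.01. With 4 arrays, many of the 11668 genes come close to any profile, and nothing is drawn from these distances.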

How the data were processed

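The authors deposited 1 log2 expression value per probe set and array, made with oligo and RMA per the submitters' processing notes. Versions and the annotation build behind the probe sets are not stated there. The log2 scale was read from the values, which run from 0.37 to 12.48. RMA equalises arrays, which hides any change common to most transcripts. Per the labels' protocols, 50 ng of total RNA per sample was used.

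Of 41345 probe sets, 23521 had 1 gene symbol in the platform annotation, 1814 several and 16010 none named here. The group comparison used limma 3.58.1 (lmFit, eBayes, no trend; R 4.3.3), two-sided, with Benjamini-Hochberg adjustment over all 11668 tested genes. The procedure was tested on simulated data. Near-identical keratin copies can share probes, which were not checked. Number of arrays limits the precision: the smallest two-sided exact permutation p for 2 against 2 is 0.333. Promoters came from RefSeq tables, with entries for 6 of the 10 keratins, and that of Krt14 starts inside the gene. Coordinates are those of GRCm38.p6.

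The keratins, the lists of other keratins, filament partners, other intermediate filaments, regulators and cell type markers, and the tests were chosen with earlier results of these data known. Named are the 10 keratins and up to 4 genes per list by smallest unadjusted p. Up to 3 other keratins and up to 3 markers per list were named by highest mean. The 4 nearest profiles were named for the most variable keratin and for the most variable luminal keratin. Named outside these rules are Cd3d, Lor, Ivl, Flg and the basal markers said to be chosen after their values were seen. Alternatives were other filters on dim genes, means over probe sets, single probe sets, median centring or quantile normalization, a robust or trended variance, a replicate block, an unadjusted threshold, other keratin lists for the balance, and leaving out each array.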

Additional observations from a re-analysis of the deposited data

How the results depend on the processing

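The count of genes past the adjusted threshold was 0 in the 8 alternatives that kept the 4 arrays and an adjusted p, 504 at an unadjusted p under 0.05, and between 0 and 13 when 1 array was left out, the 13 without wild-type replicate 2. The lone array of a reduced group was taken to vary as much as the other group does. No tested keratin passed in any alternative run. With all 4 arrays the smallest limma adjusted p was 0.944, for Krt18 with quantile normalization. With a trended variance Krt18 had an unadjusted limma p of 0.0032 and an adjusted p of 0.981. The count of 0 keratins with an unadjusted p under 0.05 is thus that of the main run. Of 106 recomputed keratin differences 96 kept their sign. Other filters, other variance models and the replicate block cannot change a difference, so many of the 96 were fixed in advance. Of the 10 that turned, 8 came from leaving out 1 array and 2 from another normalization. The difference of Krt19 turned to 0.0013 with quantile normalization and to 0.018 with median centring. Without 1 array the differences ran from −0.26 to 0.0097 for Krt7, −0.73 to 0.075 for Krt14, −0.24 to 0.082 for Krt15, −0.40 to 0.037 for Krt17, −0.040 to 0.029 for Krt19 and −0.17 to 0.28 for Krt6a. Krt8 and Krt18 kept their signs, from −0.08 to −0.03 and from 0.17 to 0.19. The luminal minus basal balance ran from 0.13, with Krt15 and Krt6a among the basal keratins, to 0.25 with 4 arrays, and from −0.0087 to 0.51 without 1 array. Krt23 was refitted only without the filter. The replicate numbers gave no sign of pairing, since deviations of samples with the same number correlated at −0.04 across genes. With the replicate block the count was 0. Each replicate number occurs in both groups, so the block cannot alter a difference, only its p. For Krt14, at −0.33, the limma adjusted p was then 0.975.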
